A study of Homo sapiens with 2 samples.

Results

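ATP-binding cassette (ABC) transporters are membrane proteins that hydrolyse ATP to move substrates across cell or organelle membranes, and a few relatives without a membrane part act on ribosomes instead. Members were the rows of the deposited gene table with a protein-coding transcript type and a symbol made of ABC, a subfamily letter from A to G and a number. There were 40 such genes among 15780 rows with a protein-coding type and 30856 rows in all. ABCA4, ABCB5, ABCC8, ABCC12 and ABCG5, which belong to the family, were not analysed here.

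Polyadenylated RNA of THP-1, an established line from a human acute monocytic leukaemia, was sequenced in 1 untreated (parental) library and 1 library made from cytarabine (Ara-C) resistant cells. Cytarabine is a nucleoside analogue that blocks DNA synthesis after it has been phosphorylated in the cell. The resistant cells came from the same line by a gradual rise of the drug from 5 nM to 10 µM, and were taken as resistant when they doubled as fast as the untreated cells. Both grew in RPMI medium with serum and antibiotics. The labels do not say whether the resistant line is a clone, or whether the drug was present at harvest. There were no replicates, so each difference below compares 2 libraries and carries no test between conditions.

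The libraries held 57434972 counts (parental) and 58285463 counts (resistant), and mitochondrial transcripts took 5.96% and 5.92% of them. Of 15 myeloid and monocytic markers, 13 (parental) and 12 (resistant) reached 1 FPKM, a count of fragments normalized to transcript length and library size, with summed levels of 1072 and 1187 FPKM. The markers differed in both directions. The granule protease genes CTSG and ELANE were higher in resistant cells, CTSG at 155 and 306 FPKM and ELANE at 359 and 448. The lysozyme gene LYZ was lower at 225 and 95.8 FPKM, as were the receptor gene CSF1R at 12.2 and 7.74 and the peroxidase gene MPO at 2.81 and 0.94. The part of these differences in the results below was not tested. The monocyte receptor CD14 was at 0.50 and 0.03 FPKM, and the leukaemia transcription factor MEIS1 had 0 and 4 counts. Of the measured erythroid, megakaryocytic, T cell, B cell, epithelial and fibroblast markers, 0 reached 1 FPKM in either library.

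ABC proteins are grouped by sequence into subfamilies, and their roles only partly follow the letters. Drug efflux pumps such as ABCB1, ABCC1 and ABCG2 sit in the plasma membrane and lower the amount of many cancer drugs in cells, including leukaemia cells. ABCA and ABCG proteins mostly move lipids and sterols, and in monocytes and macrophages ABCA1 passes cholesterol and phospholipid to apolipoprotein A-I. Half-size transporters of mitochondria and peroxisomes serve iron, haem and fatty acid metabolism.

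Levels are given as deposited FPKM. Differences between libraries are given as the log2 ratio of FPKM + 1 (resistant over parental), which shrinks differences of low genes, and as the fold of counts scaled to the library total (CPM), without a pseudocount. A fold carries a 95% exact (Clopper-Pearson) interval, which covers counting error only, since read pairs are not independent molecules and cultures were not repeated. A gene was expressed if it reached 1 FPKM in at least 1 library, which 18 of the 40 members did. A fold of counts was read for genes with at least 100 counts over both libraries, which held for 25 members.

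Among members with at least 100 counts, those with the largest folds between the libraries were ABCA1, which was lower in resistant cells, and ABCD2, which was higher. ABCB10 was among the most abundant members and was also lower. The stretch of 250 bases before the RefSeq start of these genes (GRCh38.p14, sense strand, 5′ to 3′) is printed to show the sequence upstream of each. Capitals mark matches to the motifs listed after the sequences. They lie at chr9:104928156-104928405 for ABCA1, chr1:229558708-229558957 for ABCB10 and chr12:39619804-39620053 for ABCD2, all on the minus strand.
ABCA1: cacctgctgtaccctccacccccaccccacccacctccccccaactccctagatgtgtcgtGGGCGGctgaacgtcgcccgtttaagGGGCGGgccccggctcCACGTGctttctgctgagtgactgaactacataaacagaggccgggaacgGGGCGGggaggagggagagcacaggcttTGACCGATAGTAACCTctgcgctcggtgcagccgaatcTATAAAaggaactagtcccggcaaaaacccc
ABCB10: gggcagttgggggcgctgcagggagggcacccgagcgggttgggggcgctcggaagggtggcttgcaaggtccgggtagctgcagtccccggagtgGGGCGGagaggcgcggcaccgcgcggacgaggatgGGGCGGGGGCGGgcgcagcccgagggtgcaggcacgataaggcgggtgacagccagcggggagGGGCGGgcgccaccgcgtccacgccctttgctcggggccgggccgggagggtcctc
ABCD2: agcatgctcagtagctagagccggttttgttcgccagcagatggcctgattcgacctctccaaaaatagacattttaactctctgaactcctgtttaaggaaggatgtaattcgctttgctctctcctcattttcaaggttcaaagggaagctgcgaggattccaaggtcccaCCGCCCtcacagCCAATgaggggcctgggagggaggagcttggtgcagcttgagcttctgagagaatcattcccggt

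The motifs were searched on both strands. They were the GC box GGGCGG, the CCAAT box, the TATA box TATAAA, the E box CACGTG, the nuclear receptor half-site AGGTCA, the core of the antioxidant response element TGACNNNGC, the AP-1 site TGANTCA and a liver X receptor element with a spacer between its arms, whose match is the run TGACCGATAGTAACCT in the ABCA1 line. Matches to different motifs may overlap, and adjoining matches run together in the capitals. The ABCA1 stretch held 3 GC boxes, 1 TATA box, 1 E box and 1 liver X receptor element, a binding site for the sterol-sensing receptors that drive ABCA1. That last motif was searched because it is known from this gene, so its presence is no finding; 1 of 35116 RefSeq stretches of the same length held it. The ABCB10 stretch held 4 GC boxes and the printed ABCD2 stretch 1 GC box and 1 CCAAT box. RefSeq has 2 starts for ABCD2, and the first listed is printed. The second (chr12:39605508-39605757) held 1 AP-1 site and neither of those boxes. GC boxes were in 42.6% of all stretches, CCAAT boxes in 32.01%, TATA boxes in 10.7%, E boxes in 6.34%, half-sites in 12.1%, antioxidant response cores in 10.9% and AP-1 sites in 6.57%.

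ABC genes were of modest abundance and most were close to equal in both libraries. In the parental library 18 members reached 1 FPKM and 11 reached 5 FPKM, and in the resistant library 17 and 10 did. All members together took 0.157% of parental and 0.155% of resistant counts. Over the 18 expressed members the log2 ratio had a median of 0.02, with 10 above 0 and 8 below, against -0.02 over all 11356 expressed genes with an HGNC symbol. Of the 18, 14 were less than 1.2-fold apart on the FPKM + 1 scale (77.8%), against 70.3% of all expressed genes. Of the 18 intervals 12 left out 1 (7 higher, 5 lower), as did those of 72.8% of all expressed genes, so an interval that excludes 1 is common in libraries of this depth.

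On the FPKM + 1 scale 1 member was at least 1.5-fold lower in resistant cells, ABCA1, where 4.76% of all expressed genes were, and 0 were at least 1.5-fold higher, where 2.89% were. In either direction this was 1 of 18 members beside 7.64% of all. At 2-fold the members' counts were 0 higher and 0 lower, against 0.625% and 1.22% of all (1.85% in either direction). By the fold of counts, 2 of 25 members were at least 1.5-fold higher (ABCA5 and ABCD2), where 6.4% of all 13304 counted genes were. Likewise 2 were at least 1.5-fold lower (ABCA1 and ABCC6), where 11.4% were (17.8% in either direction). The members' shares in each direction, 8.0%, were near these backgrounds. At 2-fold by counts, ABCD2 was higher and ABCA1 lower, against 2.41% and 5.6% of all counted genes (8.01% in either direction). In bulk RNA, fewer cells that express a gene and less of its RNA per cell cannot be told apart.

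**Figure D1:**
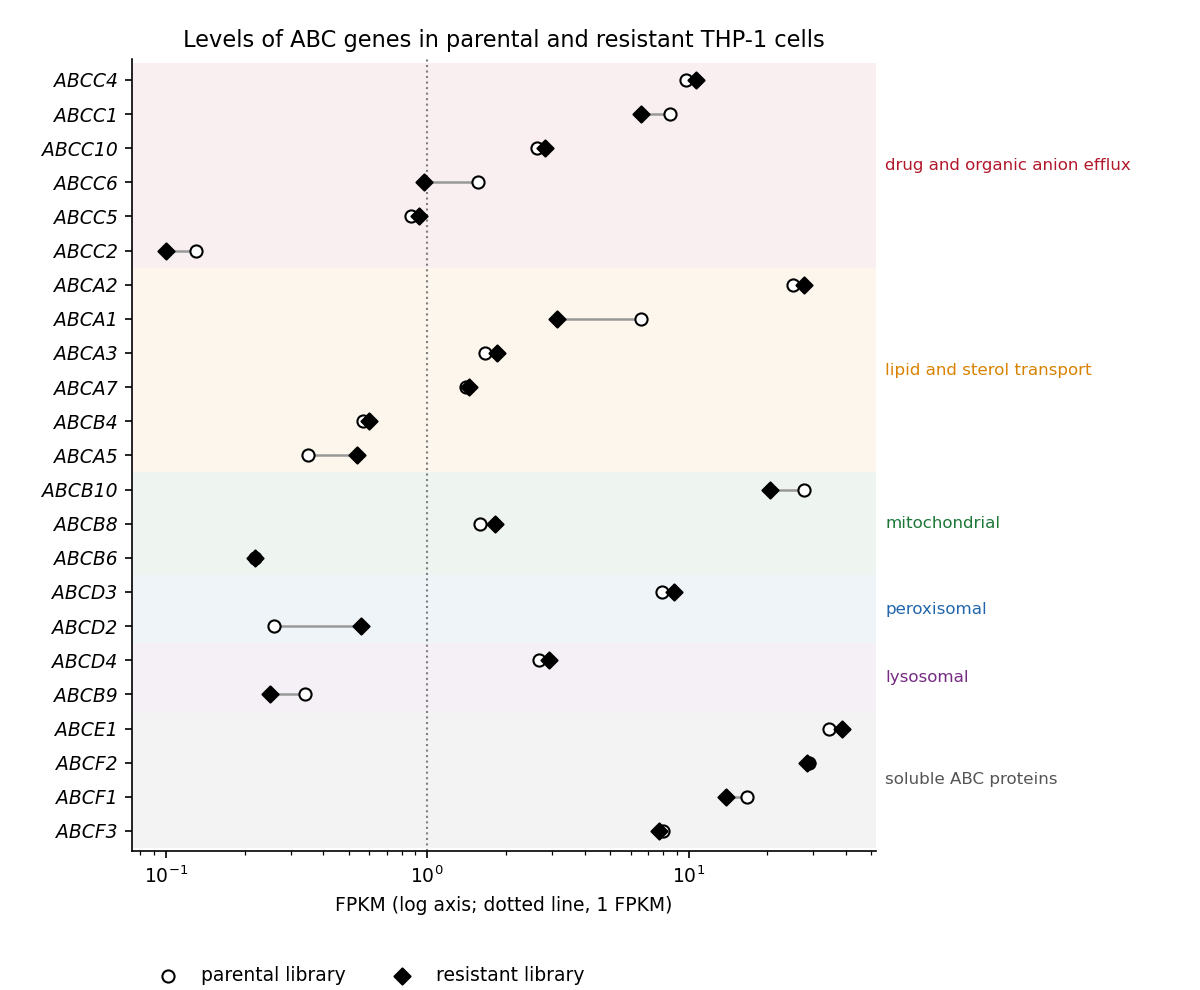
Deposited FPKM (log axis) of 23 ABC genes with at least 100 counts over both libraries, grouped by role. Open circles are the parental and filled diamonds the resistant library, joined by a line, with 1 library each and no error bars; the symbols nearly coincide for most genes, while ABCA1 lies at 6.58 in parental and 3.14 in resistant cells.

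Of the 4 expressed genes of drug and organic anion efflux, ABCC1 and ABCC6 were lower in resistant cells. ABCC4 and ABCC10 were within 1.2-fold. ABCC4, a pump for cyclic nucleotides and nucleotide analogues, was the most abundant at 9.79 FPKM in parental and 10.7 FPKM in resistant cells, a fold of 1.09 (1.06 to 1.13). ABCC1, a broad pump for glutathione conjugates and many drugs, was at 8.46 and 6.57 FPKM, or 4273 and 3376 counts, a fold of 0.779 (0.744 to 0.815). ABCC10, which also carries drugs, was at 2.64 and 2.81 FPKM with an interval that held 1 (0.991 to 1.15). Of these, ABCC1 was lower in resistant cells and ABCC4 slightly higher.

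ABCC6, a liver and kidney transporter whose loss causes ectopic calcification, was at 1.57 FPKM in parental and 0.97 FPKM in resistant cells. Its 795 and 500 counts gave a fold of 0.620 (0.553 to 0.694), the lowest among the efflux genes with at least 100 counts. ABCC6 has near-identical pseudogene copies, so its counts are uncertain. ABCC6P2 had 74 and 17 counts and ABCC6P1 had 49 and 85, which are small beside ABCC6 itself. Their part in the result was not tested.

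ABCC5, a relative of ABCC4 with similar substrates, was at 0.87 and 0.93 FPKM, a fold of 1.07 (0.966 to 1.196). ABCC2, a canalicular pump of the liver, was at 0.13 and 0.10 FPKM, from 66 and 54 counts. Neither differed beyond counting error. The classic multidrug pump ABCB1 had 19 counts in parental and 0 in resistant cells, 6.43-fold lower when 0 is set to the 3 counts per library that a count of 0 allows, and at least 4.74-fold lower by the exact interval. RUNDC3B, which overlaps it on the other strand, also had few counts, 32 and 8. ABCG2, the other classic pump of leukaemia, had 0 counts in each, so at most 3 are allowed per library. ABCC3 had 27 and 10 counts, and ABCC11 had 2 and 0. Thus 4 of the 10 efflux genes had under 100 counts over both libraries.

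A 0 in these low genes needs to be read beside the whole table. Each of the 8 members with 4 to 19 counts over both libraries held its counts in 1 library, and so did 66.7% of the 1197 protein-coding rows in that range and 55.7% of all 5432 rows. With 20 to 99 counts this was so for 0 of 4 members and 10.9% of protein-coding rows. Counts of 0 in 1 library were thus frequent among the lowest genes, and the bound for ABCB1 rests on such a count. Exact intervals cover counting error only, so the least folds given for members with a count of 0 may be too large.

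Over the 4 expressed efflux genes the median log2 ratio was -0.13, from -0.38 (ABCC6) to 0.11 (ABCC4), with 2 above 0 and 2 below. Between them were ABCC1 at -0.32 and ABCC10 at 0.07, so the median depends on ABCC6, whose counts are uncertain. ABCC1 and ABCC6 lie side by side on chromosome 16 (GRCh38), ABCC1 from 15949577 to 16143074 and ABCC6 from 16148928 to 16223522. Within 1 Mb of ABCC6 there were 10 expressed genes, with a median of 0.00, and ABCC6 was below all 10. Within 1 Mb of ABCC1 there were 14 with a median of 0.03, and 2 of them were as low as ABCC1 or lower: ABCC6 itself and NTAN1 (4.03 against 2.55 FPKM). The neighbours were divided evenly, 5 above 0 and 5 below for ABCC6 and 7 above and 7 below for ABCC1.

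**Figure D2:**
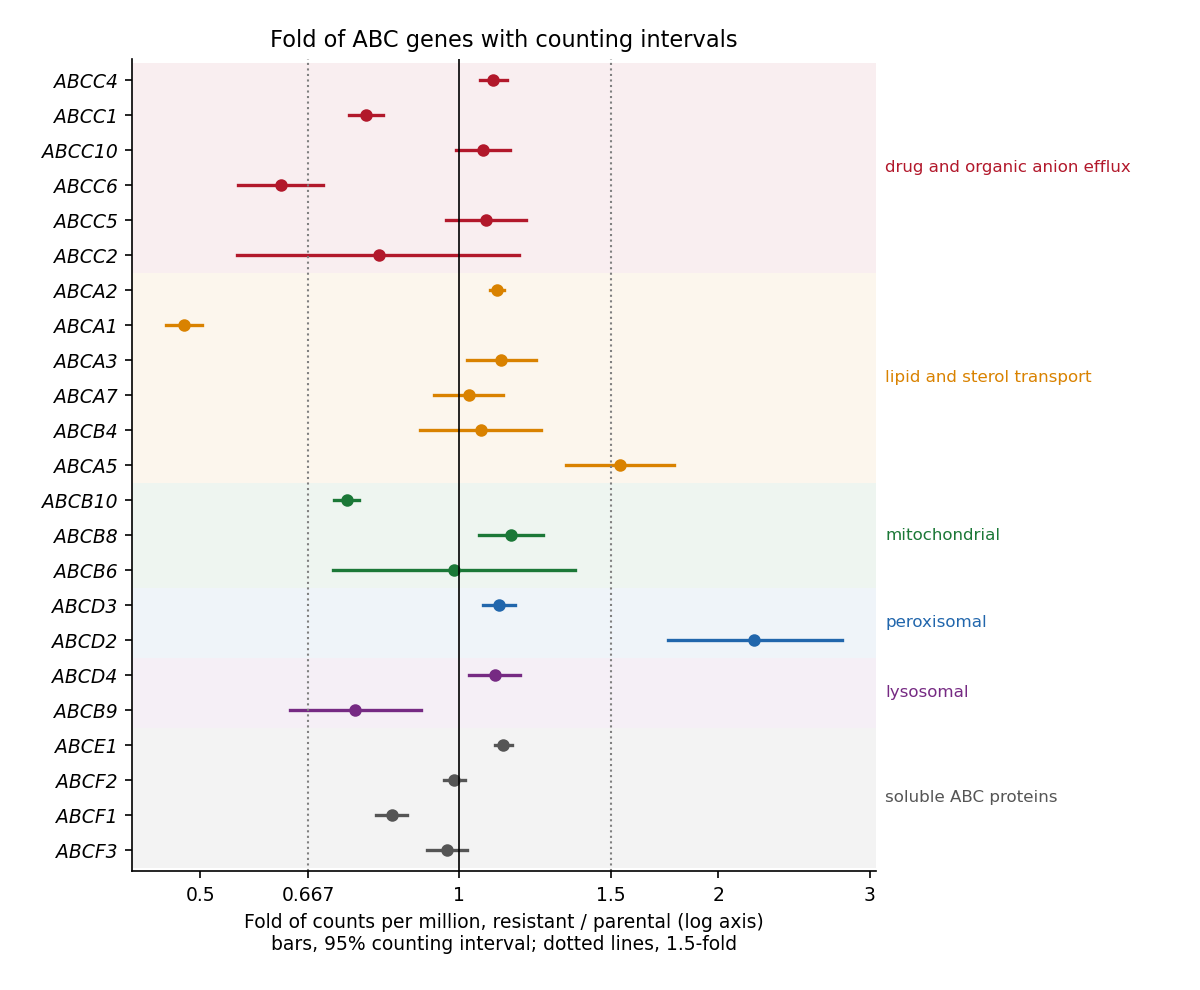
Fold of CPM, resistant over parental (log axis), for 23 ABC genes with at least 100 counts over both libraries. Points are the folds and bars the 95% exact counting intervals, which do not cover spread between cultures; ABCA1 (0.479) and ABCD2 (2.20) lie farthest from 1.

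Among lipid and sterol transporters ABCA1 stood at a lower level in resistant cells, while the others with at least 100 counts had folds between 1.02 (ABCA7) and 1.54 (ABCA5). ABCA1, the cholesterol and phospholipid exporter, is ENSG00000165029 and spans chromosome 9 (GRCh38) from 104781006 to 104928155 on the minus strand. It was at 6.58 FPKM in parental and 3.14 FPKM in resistant cells, from 4944 and 2402 counts, 2.09-fold lower (1.99 to 2.19). Its log2 ratio on the FPKM + 1 scale was -0.87, and 1.81% of all expressed genes were at or below that value. The 5 expressed genes within 1 Mb had a median log2 ratio of 0.20, with 4 above 0, and all 5 were above ABCA1. The nearest by start, NIPSNAP3A, was at 8.85 and 11.4 FPKM.

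ABCA2, a lysosomal and endosomal transporter tied to sterol and sphingolipid handling, was the most abundant lipid member at 25.0 FPKM in parental and 27.5 FPKM in resistant cells. Its 19168 and 21499 counts gave a fold of 1.11 (1.08 to 1.13). It overlaps C9orf139 on the other strand (1925 and 2557 counts), and the strand setting of the counting is not given in the sources used here. ABCA3, which loads phospholipid into lysosome-related bodies, was at 1.66 and 1.85 FPKM, a fold of 1.12 (1.02 to 1.23). ABCA7, a phospholipid transporter of phagocytes and brain, was at 1.41 and 1.44 FPKM with an interval that held 1 (0.934 to 1.12). ABCA2 and ABCA3 went the opposite way to ABCA1, with much smaller differences, and ABCA7 did not differ beyond counting error. Within 1 Mb of ABCA2 there were 51 expressed genes, with a median log2 ratio of 0.23, and 43 of them were above 0. ABCA2, at 0.14, was below that median.

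ABCA5, a lysosomal member involved in sterol efflux, was below 1 FPKM but higher in resistant cells, at 0.35 and 0.54 FPKM. Its 311 and 485 counts gave a fold of 1.54 (1.33 to 1.78). ABCA5 is the end gene of a row of relatives on chromosome 17, and the other 4 were barely detected. ABCA8, ABCA9, ABCA6 and ABCA10 had 8, 3, 15 and 4 counts in parental cells and 0 each in resistant cells. ABCA5, with a start up to 377 kb from theirs, thus had reads in both libraries while its relatives had few or 0.

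ABCB4, which flips phosphatidylcholine into bile in liver and neighbours ABCB1 on chromosome 7, was at 0.57 and 0.60 FPKM with an interval that held 1 (0.901 to 1.24). ABCG1, the partner of ABCA1 in cholesterol export from macrophages, had 6 and 17 counts, a fold of 2.79 (1.05 to 8.65). ABCG4, its brain relative, had 30 and 22. ABCG1 was so low in both libraries that its higher count in resistant cells sets no level against that of ABCA1. ABCG8 had 0 and 17 counts, ABCA12 had 0 and 15, and ABCA13 had 0 and 9. Set against 3 counts in the parental library these were 5.58-fold, 4.93-fold and 2.96-fold higher. By the exact interval they were at least 4.07-fold, 3.53-fold and 1.94-fold higher, but all are among the low genes that often show 0 in 1 library. The 4 expressed lipid genes had a median log2 ratio of 0.06, with ABCA1 the only one below 0.

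**Figure D3:**
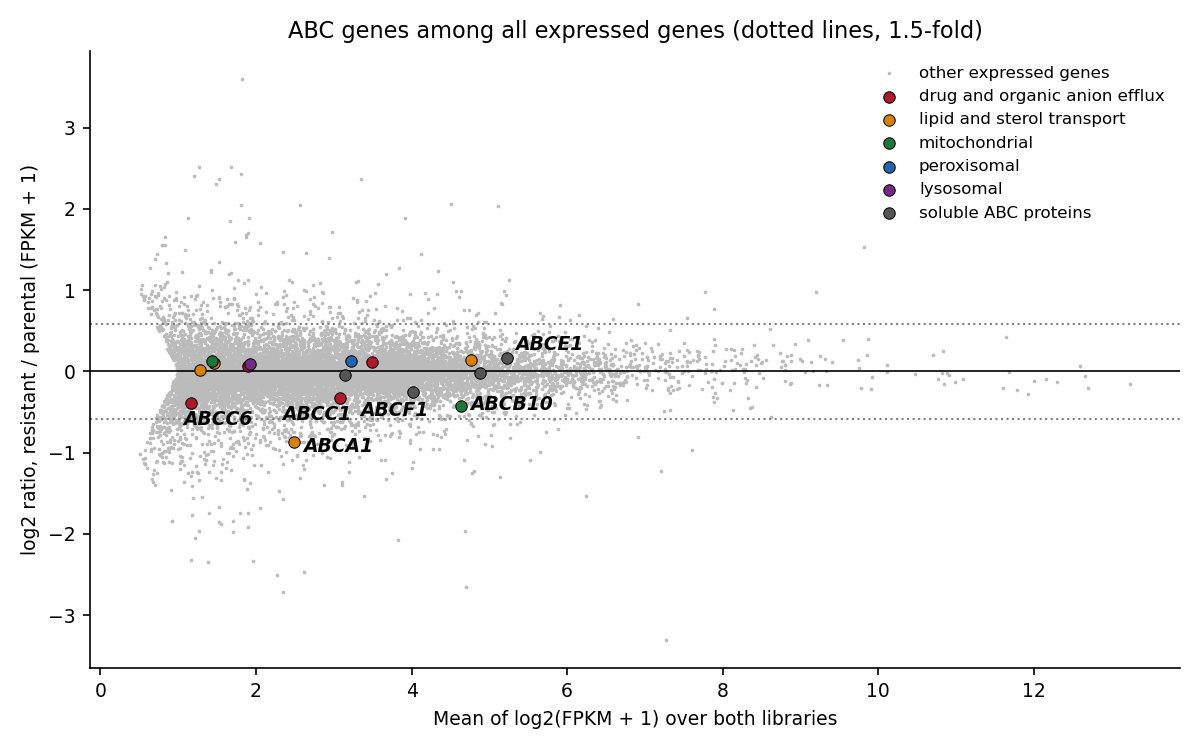
Log2 ratio (resistant over parental, FPKM + 1) against mean log2(FPKM + 1) over both libraries for expressed genes in grey, with 16 expressed ABC genes coloured by role. Each point is 1 gene; ABCA1 at -0.87 is the ABC gene beyond the dotted 1.5-fold lines.

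Genes of sterol sensing were read beside ABCA1, because liver X receptors (NR1H3 and NR1H2) switch on ABCA1, ABCG1, MYLIP, SREBF1 and other genes when oxysterols build up. Of 12 expressed genes of this list, 4 were above 0 and 8 below, with a median log2 ratio of -0.14 against -0.02 over all expressed genes. On the FPKM + 1 scale 1 of the 12 was at least 1.5-fold lower, beside 4.76% of all expressed genes. It was APOC1, an apolipoprotein gene, at 9.50 and 4.83 FPKM (0.509-fold, 0.450 to 0.575). By counts 3 of 13 were at least 1.5-fold lower and 0 higher, beside 11.4% and 6.4% of all counted genes. The others were the receptor NR1H3, at 2.74 and 1.81 FPKM (0.660-fold, 0.592 to 0.735), and SMPDL3A, a phosphodiesterase gene, with 149 and 43 counts.

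MYLIP, whose product degrades the LDL receptor, was at 8.60 and 6.08 FPKM, and SREBF1, the master regulator of lipogenesis, at 6.96 and 4.95. The lower values of NR1H3, MYLIP, SREBF1 and APOC1 went the way of ABCA1. LPCAT3 and PLTP went the other way, with 2.49 and 3.17 FPKM for LPCAT3 and 5.66 and 6.78 for PLTP. The sister receptor NR1H2 was at 2.97 and 3.06 FPKM, and the partner receptor RXRA at 20.4 and 17.9.

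Mitochondrial members were led by ABCB10, which was lower in resistant cells. ABCB10, an inner membrane transporter needed for haem synthesis in red cell precursors, is ENSG00000135776 and spans chromosome 1 from 229516582 to 229558707 on the minus strand. It was at 27.7 FPKM in parental and 20.4 FPKM in resistant cells. Its 7868 and 5906 counts gave a fold of 0.740 (0.715 to 0.765) and a log2 ratio of -0.42, short of 1.5-fold. In parental cells it stood above ABCA2 in level, and in resistant cells below it. The 11 expressed genes within 1 Mb on chromosome 1 had a median log2 ratio of 0.09, and all 11 were above ABCB10. Processed copies of ABCB10 had between 2 and 11 counts per library, few beside the gene.

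ABCB8, part of a mitochondrial potassium channel and of iron handling, was at 1.59 and 1.82 FPKM, a fold of 1.15 (1.05 to 1.25). It was within 1.2-fold and went the opposite way to ABCB10. ABCB6, a porphyrin transporter, was at 0.22 FPKM and 79 counts in each library. On the same strand it overlaps a longer gene without a symbol that had 359 and 558 counts, and the sum over both rows was 1.43-fold higher in resistant cells (1.27 to 1.62). How reads were split between these rows is not given in the sources used here.

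The 27 genes of mitochondrial iron-sulfur and haem synthesis had a median log2 ratio of -0.06, with 9 above 0 and 18 below. On the FPKM + 1 scale 1 of the 27 was at least 1.5-fold lower and 0 higher, beside 4.76% and 2.89% of all expressed genes. By counts 1 was lower and 2 higher, beside 11.4% and 6.4% of all counted genes. The lower gene was TMEM14C, which carries protoporphyrin precursors into the matrix. It was at 20.2 FPKM in parental and 10.7 FPKM in resistant cells (0.534-fold, 0.493 to 0.578). HSCB, a cochaperone of iron-sulfur cluster assembly, was at 1.44 and 2.37 FPKM. It was at least 1.5-fold higher by counts (1.65) but not on the FPKM + 1 scale. ABCB10 and TMEM14C, which both serve haem synthesis, were thus lower, while HSCB was higher. Other haem genes of the list lay on both sides. By counts ALAS1 was at 1.06-fold and SLC25A38 at 1.22-fold, and FECH at 0.901-fold and PPOX at 0.775-fold.

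**Figure D4:**
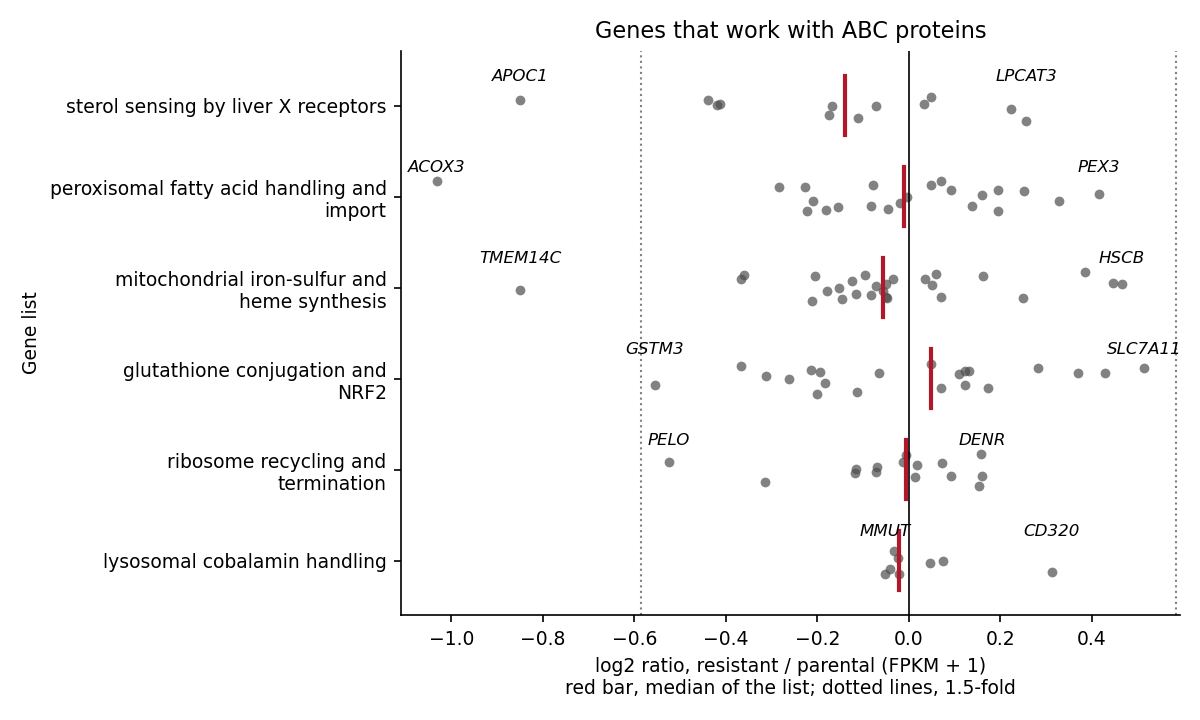
Log2 ratio (resistant over parental, FPKM + 1) of expressed genes in 6 lists of genes that work with ABC proteins. Each point is 1 gene, spread vertically for visibility, and red bars are list medians; the lowest and highest gene of each list is named, with ACOX3, APOC1 and TMEM14C beyond the dotted 1.5-fold line.

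The peroxisomal members ABCD2 and ABCD3 were higher in resistant cells, and ABCD2 differed most. Peroxisomal half-transporters bring very long, long and branched chain fatty acids, as their coenzyme A esters, into the peroxisome for oxidation. ABCD2, a carrier of very long chain and polyunsaturated fatty acids, is ENSG00000173208 and spans chromosome 12 from 39550033 to 39619803 on the minus strand. It was at 0.26 FPKM in parental and 0.56 FPKM in resistant cells, from 108 and 241 counts, 2.20-fold higher (1.75 to 2.79). Since it lies below 1 FPKM, it did not enter the FPKM + 1 counts, where its log2 ratio was 0.31. Its 4 expressed neighbours within 1 Mb had a median log2 ratio of -0.01, and all were below ABCD2.

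ABCD3, the most abundant peroxisomal member, was at 7.89 and 8.75 FPKM, a fold of 1.11 (1.06 to 1.16). It was thus far above ABCD2 in level in both libraries and differed much less between them.

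Other peroxisomal genes lay on both sides of 0. Of 22 expressed import and fatty acid genes, 10 were above 0 and 12 below, with a median of -0.01. On the FPKM + 1 scale 1 of the 22 was at least 1.5-fold lower and 0 higher, beside 4.76% and 2.89% of all expressed genes. It was ACOX3, an oxidase of branched chain fatty acids, at 7.26 FPKM in parental and 3.04 FPKM in resistant cells (0.420-fold, 0.386 to 0.456). Its relative ACOX2, below 1 FPKM, had 140 and 12 counts. PEX3 and PEX2, which build the peroxisome membrane and its import machinery, were at 4.22 and 5.96 FPKM and at 6.35 and 8.23 FPKM. The oxidases of branched chains were thus lower in resistant cells, whereas ABCD2 was higher.

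Of the lysosomal members, ABCD4 was slightly higher and ABCB9 lower in resistant cells. ABCD4, which releases cobalamin (vitamin B12) from the lysosome, was at 2.68 and 2.93 FPKM, a fold of 1.10 (1.03 to 1.18). A same-strand gene without a symbol overlaps it, with 21 and 90 counts, and the sum was 1.14-fold higher. Of 8 expressed genes of cobalamin handling, 3 were above 0 and 5 below. On the FPKM + 1 scale 0 of them were at least 1.5-fold apart, beside 7.64% of all expressed genes. The cobalamin receptor CD320 had the largest difference of them, at 9.99 and 12.7 FPKM. MMACHC, which trims cobalamin in the cytosol, was at 6.38 and 6.77, and the cobalamin-using mutase gene MMUT at 6.31 and 6.05. ABCB9, a lysosomal peptide transporter, was at 0.34 and 0.25 FPKM, a fold of 0.757 (0.635 to 0.901). ABCB9 overlaps OGFOD2 on the other strand, which had 214 and 213 counts.

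The soluble ABC proteins, which have no membrane part, were among the most abundant members. ABCE1, which splits ribosomes after termination, led all members at 34.4 FPKM in parental and 38.7 FPKM in resistant cells, a fold of 1.13 (1.10 to 1.15). ABCF2 was second at 28.8 and 28.3 FPKM with an interval that held 1 (0.959 to 1.01). ABCF1, a translation initiation factor that binds eIF2, was at 16.8 and 13.9 FPKM, a fold of 0.834 (0.800 to 0.869). ABCF3 was at 7.96 and 7.69 FPKM with an interval that held 1 (0.917 to 1.02). ABCE1 was somewhat higher and ABCF1 somewhat lower, both less than 1.2-fold apart.

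ABCE1 overlaps OTUD4 (6854 and 8273 counts) and ANAPC10 on the other strand. Of 34 expressed genes within 1 Mb of ABCF1 on chromosome 6, 25 had a negative log2 ratio (median -0.17), the sign of its own -0.25. Among 15 genes of ribosome recycling and termination, 7 were above 0 and 8 below, with a median of -0.01. PELO, which works with ABCE1 on stalled ribosomes, was at 1.79 and 0.94 FPKM (0.527-fold, 0.454 to 0.610), lower where ABCE1 was higher. GSPT2, a release factor, was at 3.23 and 2.40 FPKM, and the recycling factor DENR at 10.8 and 12.2.

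Of the remaining members, the bile salt pump ABCB11 had 47 counts in parental and 7 in resistant cells, and the potassium channel regulator ABCC9 had 0 and 4. The 15 members with under 100 counts over both libraries had at most 0.09 FPKM in either. They add little to the levels, and their differences rest on at most 54 counts.

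**Figure D5:**
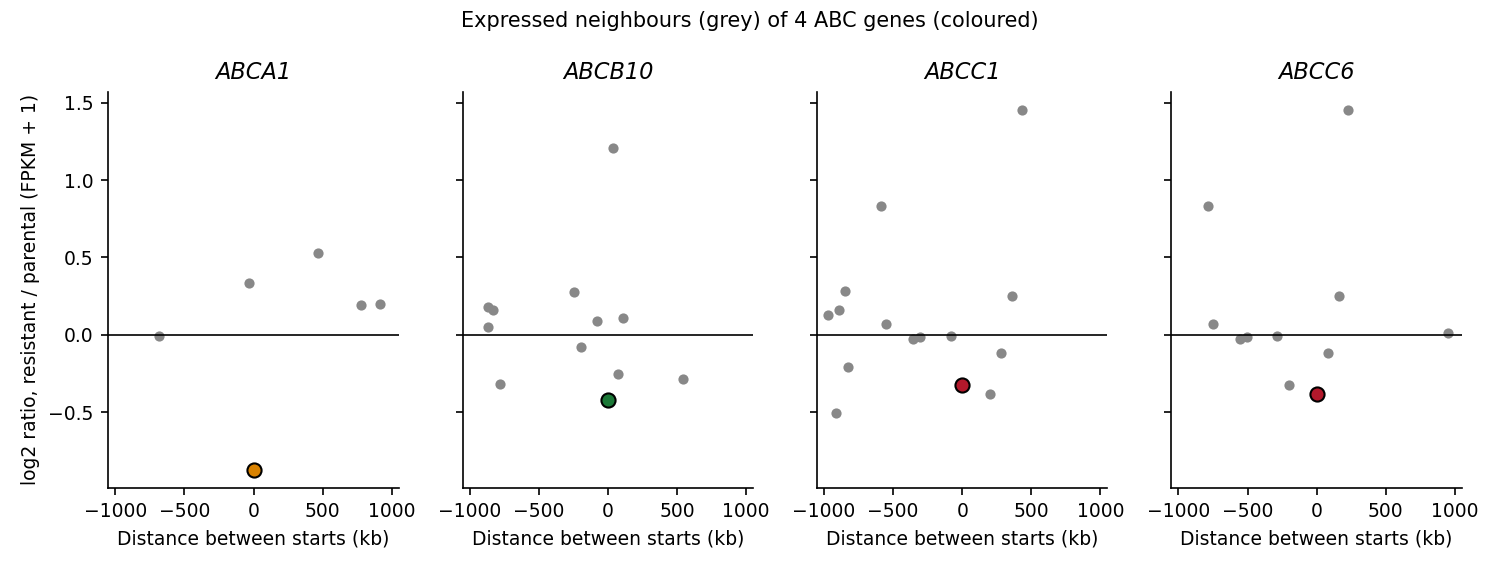
Log2 ratio (resistant over parental, FPKM + 1) of expressed genes within 1 Mb of the start of ABCA1, ABCB10, ABCC1 and ABCC6, against the distance between starts in kb. Grey points are neighbours and the coloured point the ABC gene. ABCA1, ABCB10 and ABCC6 lie below all 5, 11 and 10 neighbours. The genes drawn had the lowest log2 ratios among expressed members, so a place below most neighbours was likely from that choice.

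Order of level was nearly the same in both libraries. In parental cells it ran ABCE1, ABCF2, ABCB10, ABCA2 and ABCF1 from the top, and in resistant cells ABCE1, ABCF2, ABCA2, ABCB10 and ABCF1. ABCB10 and ABCA2 changed places. Among the efflux genes the order was ABCC4, ABCC1, ABCC10, then ABCC6 before ABCC5 in both. ABCC6 and ABCC5 were close in resistant cells at 0.97 and 0.93 FPKM.

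Genes of glutathione conjugation and the NRF2 response were read beside ABCC1, which exports glutathione conjugates. Of 21 expressed genes, 11 were above 0 and 10 below, with a median log2 ratio of 0.05. On the FPKM + 1 scale 0 were at least 1.5-fold apart, beside 7.64% of all expressed genes. By counts 1 of 21, GSTM3, was at least 1.5-fold lower and 0 were higher, beside 11.4% and 6.4% of all counted genes. SLC7A11, which imports cystine for glutathione, was at 6.72 and 10.03 FPKM, and the quinone reductase gene NQO1 at 21.9 and 29.9. GSTM3, a glutathione transferase, was at 5.07 and 3.13 FPKM (0.620-fold, 0.572 to 0.671). ABCC1 was lower, with genes of this list on either side.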

How the data were processed

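One table for both libraries was used. Per the file headers, the authors deposited FPKM (2 decimals) and whole-number counts per Ensembl gene and library; FPKM is scaled to transcript length and library size, counts are not. The tools named, per the submitters' processing notes, are HISAT2 2.0.4, edgeR, StringTie 1.3.4d, cutadapt 1.9 and DESeq2, and the build is GRCh38; what each did, the gene annotation, the strand used in counting and how multi-mapping reads were treated are not given in the sources used here. Per the labels' protocols, libraries keep strand (dUTP). The name of the resistant count column ends in an unexplained suffix.

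Members, gene lists and rules of size were chosen with earlier results of these data known. The pseudocount was 1 FPKM, the minimum 1 FPKM or 100 counts, and genes needed an HGNC symbol. Folds are ratios of counts scaled to the library total (CPM), with exact intervals. With 1 library per group there was no test. Members with at least 1 FPKM or 100 counts are given in both libraries, except a few genes that are not reported here, with the 3 largest differences and those past 1.5-fold of each other list. Genes named beside these were chosen after their values were seen. Promoters came from RefSeq (GRCh38.p14) for 33 of 40 members. Alternatives covered pseudocount, minimum, scaling and size factors (TMM, edgeR 4.0.16). Steps were tested on simulated data. Software was matplotlib 3.10.9, scipy 1.17.1, R 4.3.3, pandas 2.3.3, Python 3.11.15 and numpy 2.4.6.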

Additional observations from a re-analysis of the deposited data

Results flagged for a closer look

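ABC-named rows without a protein-coding type were outside the comparisons, and 8 of them held more counts than the 3 that a count of 0 allows. The largest signal was that of ABCC13, a pseudogene of the C subfamily on chromosome 21, with 1844 counts in parental and 1345 in resistant cells (2.58 and 1.85 FPKM), more than ABCC6, a protein-coding gene. ABCA11P, on chromosome 4, had 602 and 380 counts, and ABCA17P, on the other strand of ABCA3, had 58 and 29. The ABCC6 copies stood at 74 and 17 counts for ABCC6P2 and at 49 and 85 for ABCC6P1. The processed copies of ABCB10 had 11 and 10 counts (ABCB10P4), 6 and 6 (ABCB10P3) and 2 and 6 (ABCB10P1). ABCC13, ABCA11P, ABCA17P and ABCC6P2 were lower in resistant cells, with counting intervals of the fold below 1, and ABCC6P1 was higher.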

How the results depend on the processing

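No paired analysis was possible because each group has 1 library. Counts of members depended on the pseudocount. With 0.1 FPKM, 1 member was at least 2-fold lower and 2 at least 1.5-fold lower, against 0 and 1 with 1 FPKM; with 5 FPKM 0 were 1.5-fold lower. Ratios of CPM over the same 18 members gave 1 at least 2-fold and 2 at least 1.5-fold lower. Over all 11356 expressed genes, 328 higher and 540 lower at 1.5-fold became 567 and 910, 83 and 106, and 611 and 946 in these 3 settings. By counts, a minimum of 500 left 1 member at least 1.5-fold higher and 2 lower, of 22 (425 and 839 over all genes). A minimum of 20 gave 3 higher and 4 lower, of 29 (1560 and 2462 over all genes, against 852 and 1516). TMM and median-of-ratios size factors changed neither count of 2 members. The median log2 ratio of efflux genes was -0.0194 with no minimum, and with a minimum of 5 FPKM that of lipid genes was -0.37 and that of mitochondrial genes -0.23, each over 2 genes. Over 25 members, 0 of 100 log2 ratios under other pseudocounts, centring or counts took the opposite sign. A pseudocount cannot change the sign, so only centring and counts could have done so. ABCB6, at 0 as reported, had no sign to reverse, and was at 0.019 with centring and -0.021 by counts. Depth limits the 15 lowest members, which had at most 54 counts over both libraries.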

Other observations

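ABC proteins with another kind of symbol were also measured. TAP1 and TAP2, which pump peptides into the endoplasmic reticulum for loading on class I molecules, were at 13.9 and 36.5 FPKM in parental and 15.1 and 35.2 FPKM in resistant cells. TAP2 was thus above ABCE1 in parental cells, and both genes were less than 1.2-fold apart between the libraries. The chloride channel gene CFTR had 5 counts in parental and 0 in resistant cells.

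The stretches of 250 bases before the start of 33 members, with 49 RefSeq entries, were read for the same motifs as above. An E box was in 9 of 49 entries (18.4%) against 6.34% of 35116 entries, among them ABCA1, ABCB6, ABCB9, ABCC10 and ABCF1. The core of the antioxidant response element was also in 9 (18.4% against 10.9%), among them ABCC4, ABCA2 and ABCB6. The nuclear receptor half-site was in 2 (4.08% against 12.1%), and the CCAAT box in 10 (20.4% against 32.01%). Entries of 1 gene overlap in part, so these shares are descriptions.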
